A study of Caenorhabditis elegans with 18 samples.

Results

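The 207 most abundant piRNA genes of wild-type Caenorhabditis elegans were followed through 14 small RNA (sRNA) libraries. They were chosen from 13407 listed piRNA genes, named with the prefix 21ur-, by a mean of at least 20 RPM (the count scaled to 1000000 reads per library) in the 2 N2 libraries of mixed populations. The tables list 42400 genes in all. The choice therefore used the N2 mixed-population values, and every comparison of a line with those libraries is given below as a description only.

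Whole worms were grown at 20 C, with 2 libraries in each group. Mixed populations on NA22 bacteria comprised 4 lines that all carry meg-3(ax3055), together with meg-4(ax3052) in line 1, meg-4(ax4310) in line 2 (strain JH3672), meg-4(ax4311) in line 3 (JH3673) and meg-4(ax4312) in line 4 (JH3674), and N2, the wild-type strain. The young mothers were fed HT115 carrying the L4440 vector and comprised rde-11(hj37) and N2 for sRNA, and line 1 and N2 for mRNA. The labels name strain JH3475 for the mRNA samples of line 1 and no strain for its sRNA samples. The meg-3 and meg-4 genes encode intrinsically disordered proteins of embryonic germ granules, and rde-11 encodes a factor needed for amplification of silencing RNAs. For line 2 the title and source give a mixed population while another label gives young mother, and the title was followed. Nothing in the labels says that the 2 libraries of a group came from separate cultures, so adjusted p-values measure the spread between these libraries, which may be technical.

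Piwi-interacting RNAs of C. elegans are short germline RNAs that are transcribed from many small units, most of them clustered on chromosome IV. Precursors are capped, cut at the 5-prime side, loaded into the Piwi Argonaute PRG-1, trimmed and then methylated at the other end. Loaded PRG-1 scans germline transcripts in perinuclear granules and directs the making of secondary silencing RNAs against those it recognises. No sequence of a piRNA is printed here.

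Depth of the sRNA libraries, in reads recovered from the deposited values, was 4066778 and 4096142 reads in line 1. In lines 2 to 4 it was 5259728 to 7465897 reads, and in N2 mixed populations 4213397 and 3820363 reads. It was 4062906 and 4926941 reads in rde-11 and 4258187 and 4852083 reads in N2 young mothers. The mRNA libraries held 21994906 and 44895105 reads in line 1 and 45231464 and 44269469 reads in N2. Transcripts of meg-4, listed as C36C9.1, were at 0 and 0 for line 1 and at a scaled signal of 45.3 and 43.6 in N2 young mothers. The sRNAs of meg-4 in mixed populations were at 0 in all 4 libraries of lines 1 and 2, between 0.190 and 0.457 RPM in lines 3 and 4, and at 35.1 and 49.2 RPM in N2. The sRNAs of rde-11 were at 773 and 711 RPM in rde-11 and 658 and 623 RPM in N2 young mothers, which does not check the label, since they are not its transcript. Whole worms were sequenced, so fewer germ cells and less piRNA per germ cell cannot be told apart in any value below.

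Of the 207 members, 205 lie on chromosome IV, 1 on chromosome II and 1 on chromosome III, by the WBcel235 annotation of RefSeq, in which all 207 were found. Chromosome IV holds 95.7% of all 13405 piRNA genes found there. The members came from 56 genomic clones, with 26 on clone Y73F8A, 19 on Y105C5B and 16 on Y105C5A. Clone Y73F8A held 12.6% of the members and 7.28% of all piRNA genes. A protein-coding gene overlaps 64 members, or 30.9%, against 38.3% of all piRNA genes. Overlap was counted on either strand, and the strand setting of the read counting is not given in the sources used here, so reads of a member and of its host gene are not told apart.

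Levels among the members ran over a wide range in N2 mixed populations. The lowest mean was 20.1 RPM, the median 46.4, the upper quartile 89.7 and the highest 793 RPM, and 46 members exceeded 100 RPM. Just inside the threshold were 21ur-1324 at 20.1 RPM, 21ur-313 at 20.4 RPM and 21ur-5535 at 20.8 RPM. Just outside were 21ur-4041 at 20.0 RPM (19.997 before rounding), 21ur-4380 at 19.5 RPM and 21ur-4926 at 19.5 RPM, so the threshold cuts a continuous range of levels. The 8 highest were 21ur-5787, 21ur-3506, 21ur-38, 21ur-3215, 21ur-5329, 21ur-4748, 21ur-5630 and 21ur-705.

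The most abundant of them, 21ur-5787, had 796 and 735 RPM for line 1, 876 and 792 for line 2, 807 and 826 for line 3, 838 and 752 for line 4, and 764 and 821 in N2. The line libraries lay on both sides of N2. The next, 21ur-3506, which overlaps the chemoreceptor gene srab-24, had 654 and 592 RPM for line 1, 467 and 526 for line 2, 484 and 597 for line 3, 513 and 410 for line 4, and 777 and 655 in N2. Every line library was below both N2 libraries for this piRNA. The host gene srab-24 itself had at most 0.785 RPM in any mixed library. Another pattern was shown by 21ur-5630, with 274 and 288 RPM for line 1, 205 and 215 for line 2, 217 and 242 for line 3, 204 and 173 for line 4, and 327 and 306 in N2. Here line 1 lay between N2 and lines 2 to 4, and its log2 difference from those lines was 0.43 ± 0.11 (SE, adjusted p = 0.0090 in limma). That call was lost with TMM scaling, and the median log2 difference of all genes tested in that comparison was 0.23.

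In the other 5 of the 8 the line libraries overlapped N2. The level of 21ur-38 ran over 430 to 591 RPM in the 8 line libraries, against 594 and 432 RPM in N2. For 21ur-3215, which overlaps the gene Y73F8A.35, the line libraries ran over 368 to 498 RPM, against 448 and 438 in N2. For 21ur-5329 they ran over 331 to 514 RPM, against 456 and 354 in N2. For all 3, line libraries lay both above and below at least 1 N2 library. For 21ur-4748, inside tag-273, the range was 263 to 395 RPM, against 316 and 390 in N2, and for 21ur-705, inside the ligand-gated ion channel gene lgc-52, it was 259 to 392 RPM, against 256 and 371 in N2. In young mothers 21ur-5787 had 1284 and 1286 RPM in rde-11 and 1149 and 1119 RPM in N2, while 21ur-3506 had 1100 and 1093 RPM in rde-11 and 1007 and 1142 RPM in N2. None of the 8 was called in rde-11.

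The tables of young mothers and of mixed populations differ in the reads that overlapping piRNA genes carry. In the young mother table, 95 of the 207 members carried exactly the reads of an overlapping piRNA gene in all 4 libraries, in sets of up to 4 genes, while no member did so in the mixed tables, although 110 members overlap another piRNA gene. Levels are therefore given side by side and no test was made between the stages. With each shared set counted once, members held 55.9 and 56.1% of piRNA reads in rde-11 and 55.1 and 56.4% in N2 young mothers. In mixed populations the same share was 61.5 to 67.9% over the 10 libraries. Members were chosen as high in the N2 mixed libraries, which favours a high share there, so nothing is read from the difference between these shares. In N2 young mothers all 207 members had a mean of at least 20 RPM. The median member was 1.40-fold higher in N2 young mothers than in N2 mixed populations, and 197 of 207 had the higher mean there. MicroRNA genes of at least 20 RPM, 90 in number, had a median log2 difference of -0.71 between the same libraries, and all 5154 genes at that level one of -0.05. Food, stage and counting all differ between the 2 tables and cannot be told apart in these values.

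As a group, the members took a slightly smaller share of reads in all 4 lines than in N2, while microRNAs took a larger one. Their summed level was 17330 and 15864 RPM for line 1, 15726 and 14716 for line 2, 15209 and 15894 for line 3, 16116 and 13756 for line 4, and 17662 and 17457 in N2. All 8 line libraries were below both N2 libraries, line 1 replicate 1 by the least. The mean summed level of the members was 0.945, 0.867, 0.886 and 0.851 of that in N2 in lines 1 to 4. For all other piRNA genes together it was 0.933, 0.834, 0.824 and 0.835. The line libraries of those other genes, at 7207 to 9265 RPM, overlapped N2, at 8331 and 10922 RPM. The smaller share was therefore not shown to be particular to the members. The summed microRNA level was 293318 and 321595 RPM for line 1, 325307 and 355132 for line 2, 338448 and 311082 for line 3, 340400 and 382785 for line 4, and 221906 and 271377 in N2. Those 8 line values all exceeded N2. Relative to microRNAs, members averaged 54205 ± 6897 reads per 1000000 microRNA reads in line 1, 44889 ± 4882 in line 2, 48014 ± 4352 in line 3, 41641 ± 8066 in line 4 and 71959 ± 10794 in N2 (SD, n = 2 each). That ratio was 24.7% lower in line 1, 37.6% lower in line 2, 33.3% lower in line 3 and 42.1% lower in line 4 than in N2.

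**Figure D1:**
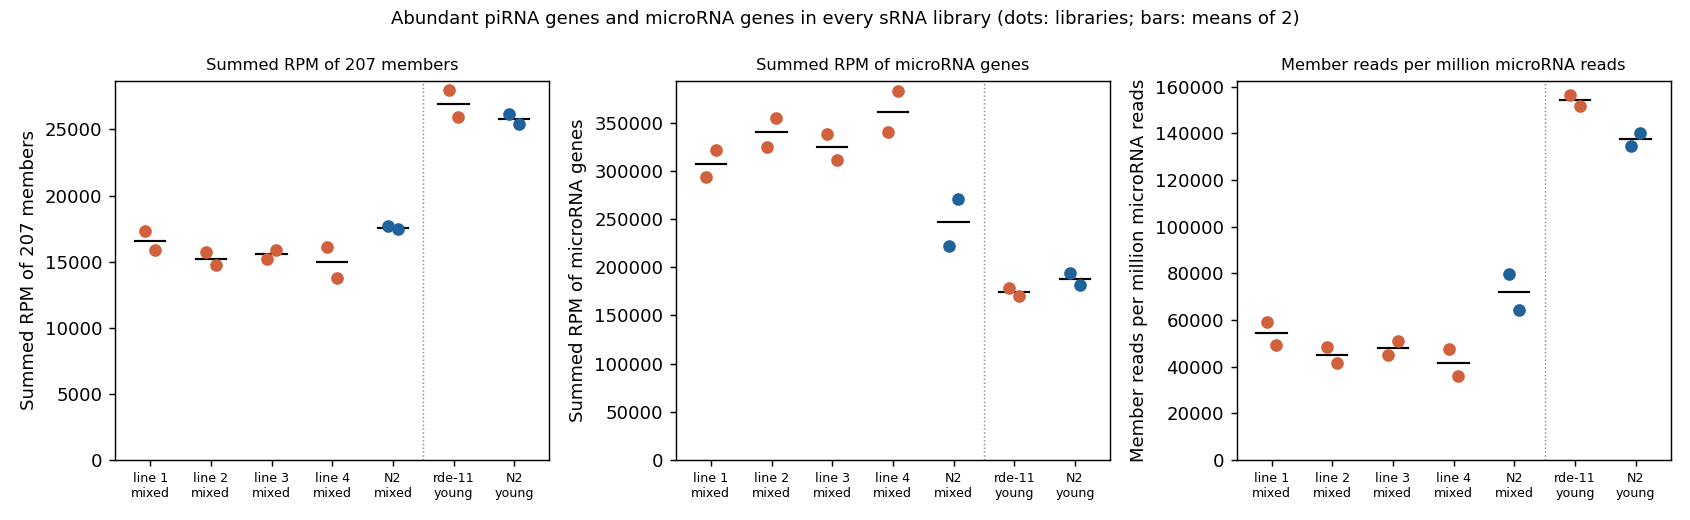
Summed RPM of the 207 members (left), summed RPM of microRNA genes (middle) and member reads per 1000000 microRNA reads (right) in each sRNA library, with dots for libraries and bars for means of 2. Mixed and young mother libraries, separated by the dotted line, come from tables that differ in the reads of overlapping piRNA genes. Members sit below N2 and microRNAs above N2 in all 8 line libraries.

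Relative to all genes the picture turned round. The median log2 change of the members against N2, on the log2(RPM + 1) scale, was -0.09 in line 1, -0.27 in line 2, -0.24 in line 3 and -0.31 in line 4. The median over all genes tested, those with a mean of at least 10 RPM, was lower in each line, at -0.34, -0.56, -0.59 and -0.77 in lines 1 to 4. MicroRNA genes had medians of 0.39, 0.40, 0.37 and 0.54. The members' medians lay between those of microRNAs and of all genes in every line. The N2 libraries in these changes chose the members, while other genes were filtered on line and N2 libraries together. Nothing is therefore read from this order. With TMM scaling, which centres libraries on their typical gene, the members' medians were 0.21, 0.19, 0.30 and 0.29 in lines 1 to 4.

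Counts of members past the test followed the scaling in the same way. At an adjusted p below 0.05 in limma, 0 members were higher and 2 lower in line 1, 5 and 57 for line 2, 7 and 47 for line 3, and 5 and 67 for line 4, all of 207. The share of all genes called lower was 13.8% in line 1, 52.8% in line 2, 54.4% in line 3 and 66.7% in line 4, and the share called higher 3.03, 5.83, 5.83 and 5.4%. In line 1, 2 members had an unadjusted p below 0.05 on the higher side, and edgeR and DESeq2 each called 2, beside 4.72 and 4.93% of all genes. With TMM scaling, 3 members were higher and 1 lower in line 1, beside 6.35 and 7.71% of all genes. In line 2 they were 37 and 3, beside 12.2 and 9.93%, in line 3 58 and 3, beside 16.1 and 8.67%, and in line 4 53 and 3, beside 13.6 and 13.1%. The authors' deposited table had 1 member higher and 1 lower in line 1, 24 and 3 for line 2, 28 and 3 for line 3, and 38 and 2 for line 4. Over all genes that table called 367 to 803 higher and 441 to 485 lower in the 4 lines, of 9839 to 11025 genes with an adjusted p. Nothing is read from these counts, since the N2 libraries in them chose the members, and all 4 lines share them. All 8 line libraries were below both N2 libraries for 35 members and above both for 5, against 52.3 and 5.34% of 6480 genes tested in every line.

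**Figure D2:**
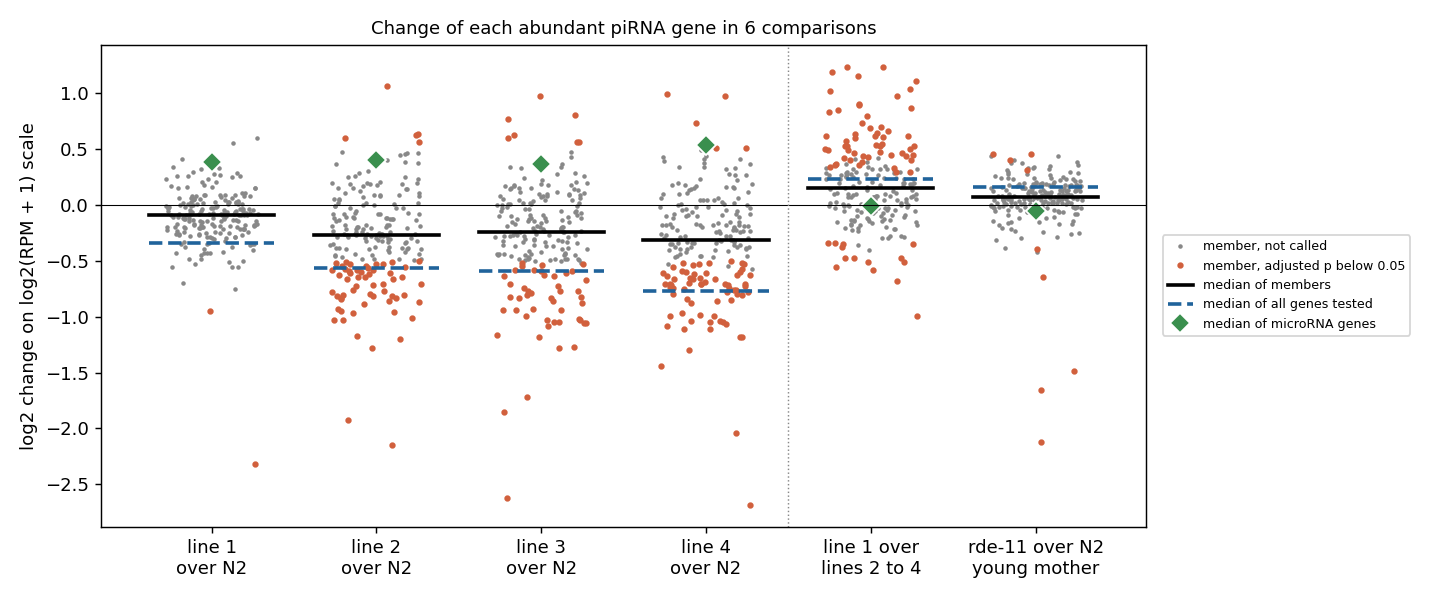
Log2 change of each member (dots, on the log2(RPM + 1) scale) in the 4 lines over N2, in line 1 over lines 2 to 4, and in rde-11 over N2 young mothers. Black bars are medians of members, dashed bars medians of all genes tested and diamonds medians of microRNA genes, and the members' median lies between the other medians in the 4 lines.

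The lowest member in all lines was 21ur-15630. It had 8.61 and 7.08 RPM for line 1, 9.35 and 8.50 for line 2, 7.31 and 5.13 for line 3, and 5.89 and 5.79 for line 4, against 43.2 and 42.7 RPM in N2. Its mean log2 difference over the 4 lines was -2.44, and N2 and line libraries were far apart. It overlaps the protein-coding gene Y38F2AL.12, whose own sRNAs had 0.246 and 0.976 RPM for line 1 and 4.51 and 7.07 RPM in N2. The next was 21ur-4880, inside the chemoreceptor gene srj-42, with 13 and 11 RPM for line 1, 5.52 and 4.06 for line 2, 5.33 and 4.75 for line 3, 6.56 and 2.72 for line 4, and 23.0 and 18.8 RPM in N2. Line 1 lay between N2 and the other lines for this member. The other 3 of the 5 lowest, 21ur-3439, 21ur-247 and 21ur-8059, had mean log2 differences of -0.99, -0.94 and -0.81. Of these, 21ur-3439 had 80.4 and 61.3 RPM for line 1, 40.9 and 45.1 for line 2, 44.9 and 59.7 for line 3, 42.2 and 38.3 for line 4, and 97.8 and 103 RPM in N2. Its line 1 libraries stood between N2 and the other lines, as with 21ur-4880. For 21ur-8059, inside the glutamate receptor gene mgl-3, line 1 had 33.7 and 38.8 RPM, lines 2 to 4 had 17.2 to 27.9 RPM, and N2 had 41.3 and 51.6 RPM.

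Members above N2 in all 8 line libraries were 21ur-3727, 21ur-551, 21ur-2508, 21ur-13215 and 21ur-13515. The furthest, 21ur-3727, had 98.1 and 80.3 RPM for line 1, 102 and 81.6 for line 2, 105 and 95.6 for line 3, 116 and 115 for line 4, and 71.0 and 47.9 RPM in N2. The 5 had mean log2 differences of 0.28 to 0.74 over the 4 lines. For 21ur-551 the line libraries ran over 75.4 to 92.0 RPM, against 72.9 and 43.7 RPM in N2. For 21ur-2508 they ran over 60.8 to 81.2 RPM, against 57.4 and 47.9 RPM in N2. N2 replicate 2 was the lowest library for both. This direction depended on the scaling. Scaled to microRNA reads, 21ur-3727 stayed above N2 in the 4 lines, with log2 changes of 0.17 to 0.42, while 21ur-13215 and 21ur-13515 were below N2 in every line. On that scale 21ur-13215 was at -0.029, -0.0026, -0.050 and -0.28 in lines 1 to 4, and 21ur-13515 at -0.17, -0.28, -0.060 and -0.11. For 21ur-2508 the change was below 0 in lines 2 to 4 (-0.17, -0.032 and -0.039), and for 21ur-551 in line 4 (-0.034).

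Line 1 differed from the other lines in a comparison that used no N2 library. The choice of members may still bear on it, and this was not tested. Over the members, the replicate difference of line 1 correlated with that of N2 with a Pearson r of 0.80. For lines 2, 3 and 4 the r with N2 was -0.10, -0.37 and -0.64. Line 1 was set against the mean of lines 2, 3 and 4 in a limma fit to 8 libraries, where 204 members passed the filter. The other 3, 21ur-15630, 21ur-3629 and 21ur-4880, fell below a mean of 10 RPM over the line libraries. Of the 204, 55 were higher and 14 lower in line 1, at a median log2 difference of 0.15 against 0.23 over all 6006 genes tested. All genes were called higher in 30.8% and lower in 4.38% of cases, against 27.0% and 6.9% of the members, a difference in shares that was not tested. With TMM scaling the split was 8 higher and 48 lower, beside 6.21 and 14.1% of all genes. Members called on both scales numbered 8 higher and 14 lower. No share of all genes called on both scales is given here, so nothing is read from these numbers. Relative to microRNA reads, 67 were higher and 2 lower, beside 38 and 2.01% of all genes.

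Among the 6 largest on the higher side, 21ur-1621 had 28 and 33.4 RPM for line 1, 14.3 and 12.7 for line 2, 12.6 and 10.8 for line 3, and 17.1 and 8.51 for line 4. The line 1 libraries exceeded all 6 others, with a log2 difference of 1.24 ± 0.20 (SE) and an adjusted p of 0.0014 in limma. For 21ur-3541, inside the polycystin gene pkd-2, line 1 had 47.9 and 80.3 RPM, line 2 26.5 and 27.0, line 3 25.3 and 28.3, and line 4 43.9 and 22.6. Line 1 was again above every other library, with a log2 difference of 1.11 ± 0.22 (SE) and an adjusted p of 0.0030. The host gene pkd-2 had at most 0.570 RPM in these libraries.

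In 1 of the 6 the libraries overlapped. This member, 21ur-314, lies inside the potassium channel gene egl-23 and had 21.9 and 44.2 RPM for line 1 and 27.7 and 8.51 RPM for line 4, and its log2 difference of 1.04 ± 0.34 (SE, adjusted p = 0.029 in limma) did not pass with TMM scaling (adjusted p = 0.17). For 21ur-6929, inside the glutamine-rich protein gene pqn-22, line 1 had 15.5 and 31.5 RPM, line 2 9.20 and 12.7, line 3 7.31 and 6.84, and line 4 11.1 and 6.98. Its log2 difference was 1.24 ± 0.25 (SE, adjusted p = 0.0031 in limma), with line 1 above all other libraries. The last 2 of the 6, 21ur-9577 and 21ur-4314, had log2 differences of 1.19 and 1.16, without overlap. With TMM scaling 21ur-9577 was no longer called. Lines 2 to 4 averaged below 10 RPM for 21ur-6929 and 21ur-4314, so both passed the filter only through line 1, the group where they were high. Without line 1 replicate 2, 21ur-6929 fell below the filter, and DESeq2 gave it no adjusted p.

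Members called higher by limma on RPM, TMM and microRNA scales and by edgeR and DESeq2 alike were 21ur-15223, 21ur-1621, 21ur-3541, 21ur-4314 and 21ur-621. All of these fits used the same filter, which 21ur-4314 passed only through line 1. No share of all genes called by all of these fits is given here, in either direction. The most abundant member called by all fits, 21ur-15223, lies inside the netrin receptor gene unc-5. It had 156 and 140 RPM for line 1, 87.2 and 80.3 for line 2, 69.9 and 68.1 for line 3, and 96.0 and 73.2 for line 4, a log2 difference of 0.90 ± 0.12 (SE, adjusted p = 0.00046 in limma). For 21ur-621, line 1 had 111 and 96.9 RPM and lines 2 to 4 had 53.1 to 72.2 RPM, a log2 difference of 0.69 ± 0.11 (SE, adjusted p = 0.0014 in limma). Line 1 libraries were clear of all others for both, and N2 had 133 and 164 RPM of 21ur-15223 and 132 and 112 RPM of 21ur-621.

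On the lower side, 21ur-361, inside the gene ccg-1, had 31.5 and 19.8 RPM for line 1, 51.7 and 53.9 for line 2, 54 and 45.6 for line 3, and 56.1 and 44.8 for line 4. Its libraries did not overlap, and the log2 difference was -1.0 ± 0.16 (SE, adjusted p = 0.0012 in limma). The N2 mixed libraries, which took no part in this test, had 31.1 and 19.6 RPM. For 21ur-4570, line 1 had 55.1 and 51.5 RPM, against 87.2 and 90.7 for line 2, 81.8 and 92.8 for line 3, and 88.8 and 74.8 for line 4. The log2 difference was -0.68 ± 0.11 (SE, adjusted p = 0.0015 in limma), with no overlap. The other 4 largest, 21ur-4755, 21ur-324, 21ur-5521 and 21ur-609, had log2 differences of -0.59 to -0.51, and their line 1 libraries were also below all others. The most abundant, 21ur-609, had 120 and 117 RPM for line 1 and 160 to 179 RPM in lines 2 to 4, with 142 and 109 RPM in N2. Both 21ur-361 and 21ur-4570 were called lower in all 5 kinds of fit.

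**Figure D3:**
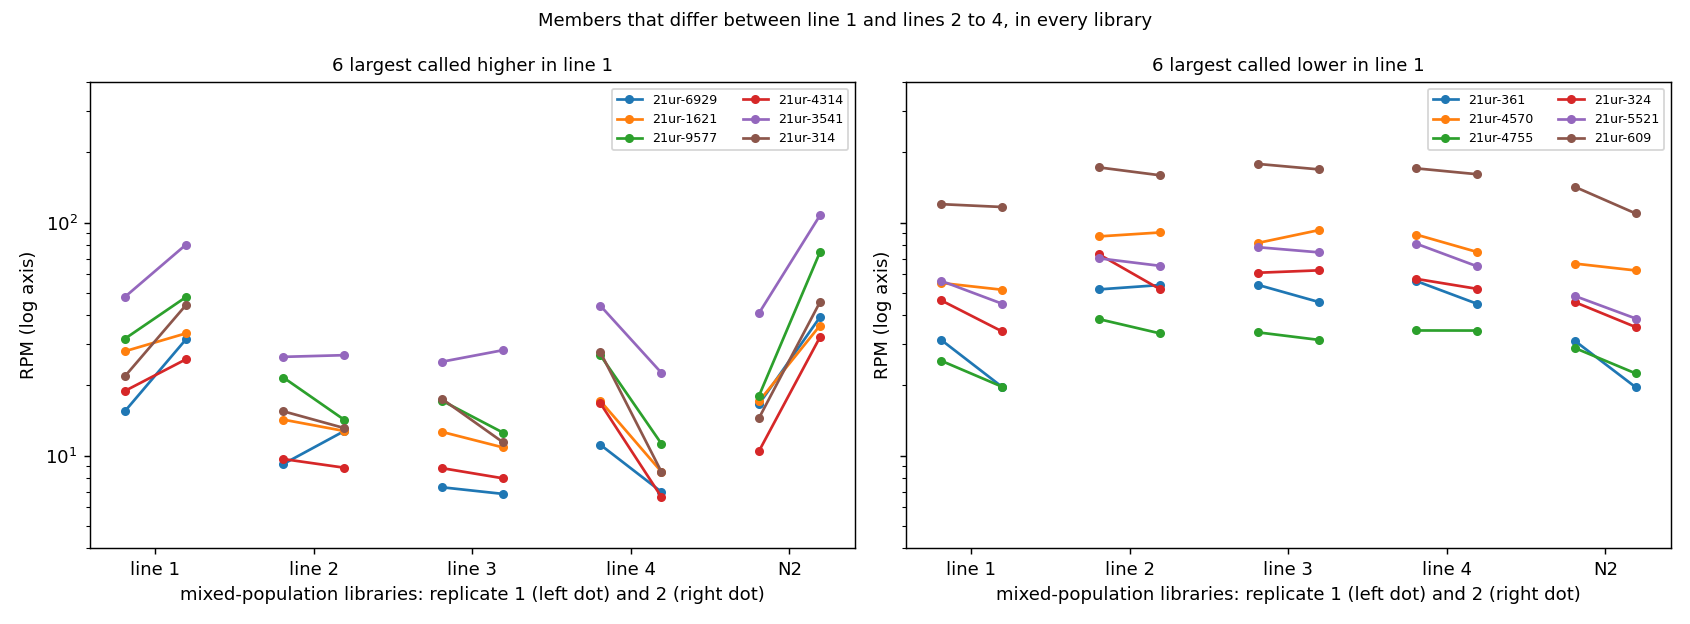
RPM (log axis) in each mixed library of the 6 members called higher (left) and the 6 called lower (right) in line 1 with the largest difference from lines 2 to 4. Pairs of joined dots are replicates 1 and 2 of a group, and N2 is shown for orientation although it took no part in the test. The lower 6 are separated in all libraries, while 21ur-314 among the higher 6 overlaps, and several of the higher 6 also differ between the replicates of line 1, line 4 and N2.

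Members also differed between the replicates of a group. In N2 mixed populations, 18 members were over 2-fold higher in replicate 2 than in replicate 1, and 0 the other way. In line 4, 10 members were over 2-fold higher in replicate 1, and 0 the other way, while line 1 had 1 higher in replicate 1 and 3 in replicate 2. Lines 2 and 3 and both young mother groups had none either way. No such count over all genes is given here, so nothing particular to piRNA genes is read from these counts. An example is 21ur-9577, with 31.7 and 47.8 RPM for line 1, 26.9 and 11.2 for line 4, and 18.0 and 74.6 in N2. Another is 21ur-3629, chosen after its values were seen, with 8.61 and 23.7 RPM for line 1, 11.8 and 5.28 for line 4, and 5.22 and 38 in N2.

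Across the 207 members, the difference between replicates 1 and 2 of line 1 correlated with that of N2 with a Pearson r of 0.80, and that of line 4 with r = -0.64. For lines 2 and 3 the r with N2 was -0.10 and -0.37. These are descriptions over members of the same libraries, which are not independent points. Of the 55 members called higher in line 1 than in lines 2 to 4, 41 were higher in N2 replicate 2, and of the 14 called lower, 3 were, against 99 of the 204 tested. MicroRNA markers of stage were measured in the same libraries. The summed level of the mir-35 family, 8 microRNAs of oocytes and embryos, was 23309 and 16770 RPM for line 1, 44293 and 35326 for line 2, 50105 and 32873 for line 3, 39171 and 38141 for line 4, and 34333 and 18355 in N2. The larval and adult microRNA let-7 had 1486 and 2335 RPM for line 1, 987 and 1281 for line 2, 1101 and 1212 for line 3, 1507 and 933 for line 4, and 1078 and 2061 in N2. Both line 1 libraries and N2 replicate 2 had the lowest mir-35 family levels of the 10 libraries, and line 1 replicate 2 and N2 replicate 2 the highest let-7 levels. In lines 1, 2 and 3 and in N2, let-7 was higher in replicate 2 and the mir-35 family in replicate 1. In line 4 both were higher in replicate 1, the mir-35 family by little. Both mir-1, of body wall muscle, and lin-4, of larvae, were at 0 in the mixed libraries. They were among the 8 microRNA genes listed at 0 in every mixed library that had at least 20 RPM in young mothers, so nothing is read from them about muscle or larvae, and the summed microRNA level of the mixed libraries leaves these genes out. The part of these levels in the piRNA differences was not tested.

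**Figure D4:**
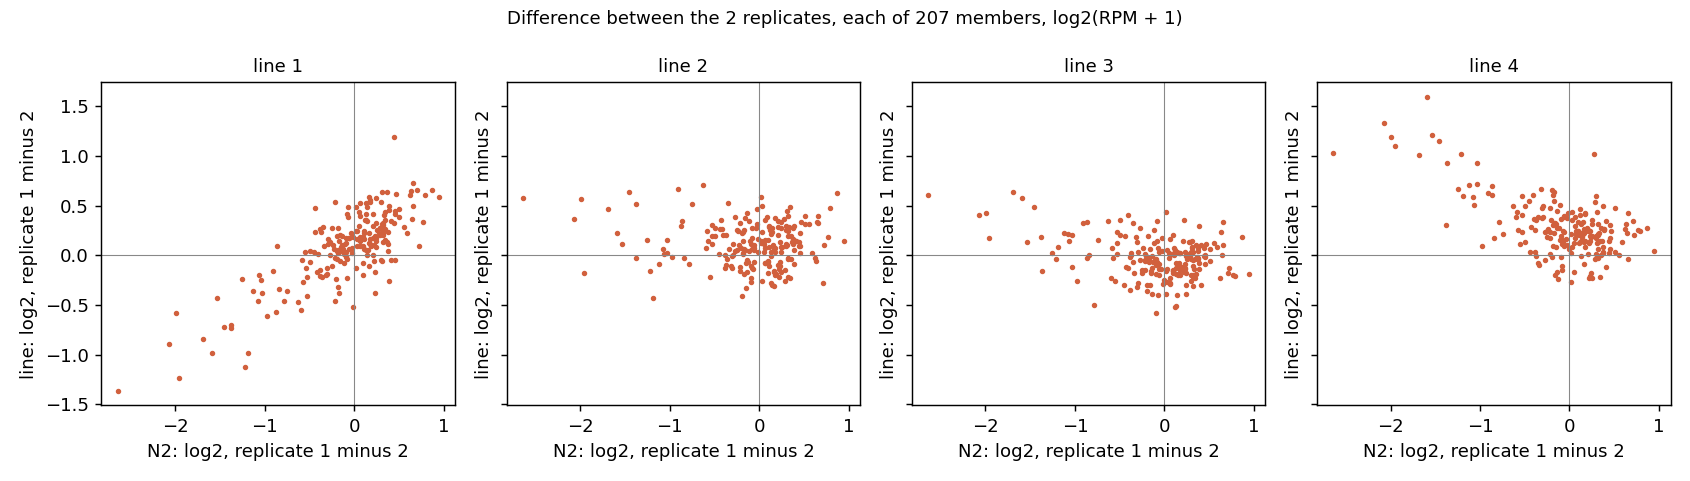
Difference between replicates 1 and 2 of each line (y axis, log2(RPM + 1)) against that of N2 mixed populations (x axis) for each of 207 members. Points of line 1 run along the rising diagonal (r = 0.80) and points of line 4 along the falling one (r = -0.64).

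The other comparison without the libraries that chose the members set rde-11 against N2 in young mothers. Summed members were 27957 and 25915 RPM in rde-11 and 26184 and 25441 RPM in N2, ranges that overlap. Relative to microRNAs they averaged 154178 ± 3194 reads per 1000000 microRNA reads in rde-11 and 137497 ± 3850 in N2 (SD, n = 2 each). All 207 members passed the filter. Of these, 4 were higher and 5 lower in rde-11 in limma, at a median log2 change of 0.07 against 0.16 over all 7855 genes tested. The test called 18.3% of all genes higher and 8.56% lower, against 1.9% and 2.4% of the members, a difference in shares that was not tested. With TMM scaling 0 members were higher and 6 lower, beside 9.92 and 10.9% of all genes. On the higher side 15 members had an unadjusted p below 0.05 on the RPM scale, and edgeR and DESeq2 called 0, beside 9.19 and 5.75% of all genes. The mir-35 family was at 9980 and 9729 RPM in rde-11 and 9551 and 9778 RPM in N2.

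The largest changes were falls of single members. The only member on chromosome III, 21ur-11898, had 13.8 and 14.8 RPM in rde-11 and 62.0 and 69.5 RPM in N2. It fell by 2.12 ± 0.15 on the log2 scale (SE, adjusted p = 2.9e-05 in limma). Its reads equal those of the overlapping 21ur-10824 in this table. It also lies within the protein-coding gene Y54F10BM.9, whose own sRNAs were at 1262 and 1211 RPM in rde-11 and 1095 and 1175 RPM in N2. In mixed populations 21ur-11898 had 45.4 to 83.2 RPM over the 8 line libraries and 66.5 and 76.2 RPM in N2.

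The member lowest in the lines, 21ur-15630, was also lower here, with 14.0 and 14.0 RPM in rde-11 and 46.5 and 46.2 RPM in N2. It fell by 1.66 ± 0.15 on the log2 scale (SE, adjusted p = 0.00012 in limma). By contrast 21ur-13215, which overlaps the pseudogene Y59H11AR.6, had 69.7 and 64.1 RPM in rde-11 and 205 and 175 RPM in N2. It fell by 1.49 ± 0.13 (SE, adjusted p = 0.00011 in limma). In the 4 lines this member was above both N2 mixed libraries throughout, at 108 to 138 RPM in the lines against 93.3 and 102 RPM in N2. Over the alternatives its log2 change in line 4 ranged from 1.06 down to -0.28, so that direction depends on the scaling. The 3 members kept their calls under all 12 alternatives tried.

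Smaller falls were seen for 21ur-3926, with 214 and 267 RPM in rde-11 and 418 and 333 RPM in N2 (log2 change -0.64 ± 0.14 SE, adjusted p = 0.013 in limma). The fifth, 21ur-5107, had 66.0 and 70.2 RPM in rde-11 and 93.7 and 86.1 RPM in N2, at an adjusted p of 0.049. The 4 higher members were 21ur-1697, 21ur-1375, 21ur-2883 and 21ur-3547, with log2 changes of 0.32 to 0.46, and none of them passed with TMM scaling, edgeR or DESeq2. For 21ur-1697, rde-11 had 101 and 98.2 RPM and N2 had 70.5 and 73.8 RPM. The most abundant of the 4, 21ur-3547, had 289 and 291 RPM in rde-11 and 238 and 228 RPM in N2. Members that overlap a gene other than a piRNA gene, 73 in number, had a median log2 change of 0.05, and the other 134 one of 0.08. In the authors' deposited table, 0 members were higher and 4 lower in rde-11, beside 508 and 567 of 10909 genes.

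**Figure D5:**
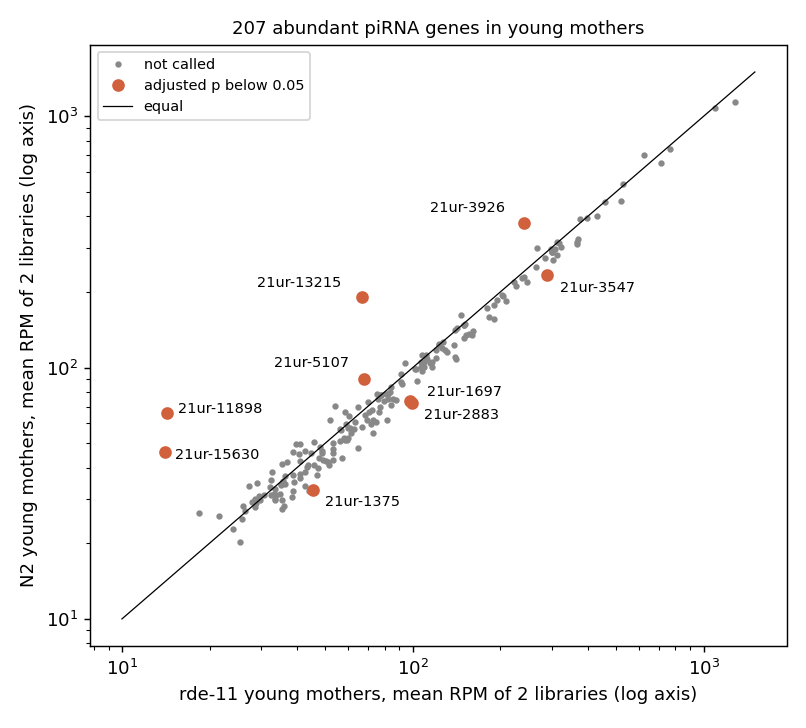
Mean RPM of each of the 207 members in rde-11 (x axis) and N2 (y axis) young mothers, 2 libraries each, both on log axes. The 9 members with an adjusted p below 0.05 are labelled, and 21ur-11898, 21ur-15630 and 21ur-13215 lie furthest above the line of equal levels.

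Genes that make and use piRNAs were examined as a separate list, through the sRNAs that map to them and, in line 1, through their mRNAs. The list follows the order of the pathway and holds 25 tested genes in rde-11. Of these, 10 had more sRNAs and 1 fewer in rde-11 than in N2 young mothers, at a median log2 change of 0.38. The share of all genes was 18.3 and 8.56%, as above. For the Piwi gene prg-1, sRNAs were at 508 ± 78.0 RPM in rde-11 and 432 ± 49.3 RPM in N2 (SD, n = 2 each), which did not pass the test (adjusted p = 0.21 in limma).

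The transcription factor gene snpc-4, whose protein binds piRNA clusters, had 93.3 and 124 RPM in rde-11 and 52.4 and 60.4 RPM in N2 (log2 change 0.92 ± 0.16 SE, adjusted p = 0.0052 in limma). Another transcription gene, snpc-1.3, known for piRNAs of the male germline, had 6.15 and 6.29 RPM in rde-11 and 14.8 and 17.7 RPM in N2. It fell by 1.25 ± 0.21 on the log2 scale (SE, adjusted p = 0.0040 in limma). It passed the filter only through N2, since rde-11 averaged below 10 RPM, and without N2 replicate 2 it fell below the filter. The next genes by adjusted p were pid-5, deps-1, a P granule gene, pid-4 and tofu-4, with log2 changes of 0.75, 0.61, 0.62 and 0.80. The other 5 called higher, named after their values were seen, were prg-2, another Piwi gene, at 0.85, slfl-4 at 0.64, prde-1 at 0.58, pid-3 at 0.58 and pgl-1, a P granule gene, at 0.47. Of the 10, prg-2, snpc-4, tofu-4 and pid-5 were called in all 5 kinds of fit, for which no share of all genes is given here.

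In the lines many genes of the same list gave fewer sRNAs than N2, as did most genes tested in lines 2 to 4. On the RPM scale 2 of 25 genes were lower in line 1, 15 of 24 in line 2, 16 of 23 in line 3 and 18 of 24 in line 4, with 0 higher in any line by limma and 0 at an unadjusted p below 0.05 on that side. All genes were called lower in 13.8, 52.8, 54.4 and 66.7% of cases in lines 1 to 4, so the difference from N2 was shared with the typical gene, and no difference in shares was tested. Among the lower genes, 1 in line 2, 2 in line 3 and 3 in line 4 passed the filter only through N2, with the line below 10 RPM. TMM scaling gave 0 lower in line 1, 2 in line 2, 1 in line 3 and 2 for line 4, beside 7.71, 9.93, 8.67 and 13.1% of all genes. It gave 0 higher in line 1 and 1 higher in each of lines 2, 3 and 4, beside 6.35, 12.2, 16.1 and 13.6%. In lines 2, 3 and 4, edgeR and DESeq2 each called 1, 2 and 3 higher, beside 14.6, 16.6 and 16.7% of all genes in edgeR and 12.0, 13.3 and 15% in DESeq2. In line 1 both called 0.

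The sRNAs of prg-1 were at 323 and 293 RPM for line 1, 228 and 252 for line 2, 222 and 252 for line 3, 252 and 220 for line 4, and 490 and 400 in N2. All lines were below N2, with log2 changes of -0.52 (adjusted p = 0.093) in line 1, -0.88 in line 2, -0.90 in line 3 and -0.91 in line 4, the last 3 past the test in limma and none with TMM scaling. The gene snpc-1.3 had 10.6 and 14.4 RPM for line 1, 11.8 and 11.3 for line 2, 8.37 and 10.6 for line 3, 9.24 and 10.2 for line 4, and 27.5 and 23.3 in N2. With lines 3 and 4 averaging below 10 RPM, it passed the filter there only through N2. It was lower in every line, with log2 changes of -0.98, -1.07, -1.33 and -1.3 in lines 1 to 4, and TMM scaling left the calls of lines 2, 3 and 4 and not that of line 1 (adjusted p = 0.095). Against lines 2 to 4, line 1 had more sRNAs at 11 of 22 tested genes and fewer at 0, with 0 at an unadjusted p below 0.05 on that side, beside 30.8 and 4.38% of all genes. On the lower side edgeR and DESeq2 also called 0, beside 10.4 and 7.43% of all genes. TMM scaling kept 4 of the 11, which were snpc-4, tofu-4, slfl-3 and prg-2.

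In the mRNA of line 1 young mothers, 8 of 25 genes were lower and 0 higher than in N2, with 0 at an unadjusted p below 0.05 on the higher side and 0 higher by edgeR or DESeq2, beside 6.95 and 10.9% of all genes in those tools. TMM scaling gave 6 lower and 0 higher, beside 5.59 and 3.86% of all genes. All genes were called lower in 10.3% and higher in 4.18% of 7616 cases. The median log2 change was -0.21 for the list and -0.11 for all genes. The translation factor gene ife-3, whose protein joins piRNA precursor complexes, had a scaled signal of 226 and 220 for line 1 and 292 and 311 in N2 (log2 change -0.43 ± 0.06 SE, adjusted p = 0.010 in limma). The P granule gene deps-1 had 213 and 204 for line 1 and 268 and 262 in N2 (log2 change -0.35 ± 0.06 SE, adjusted p = 0.018 in limma). For hrde-1, tost-1, tofu-6 and pid-2 the log2 changes were -0.36, -0.39, -0.31 and -0.29.

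The mRNA of prg-1 was at 379 and 399 for line 1 and 436 and 444 in N2, with a log2 change of -0.18 ± 0.06 (SE) that missed the threshold (adjusted p = 0.073 in limma). Summed oocyte marker transcripts, 7 genes, were at 4923 and 4901 for line 1 and 6315 and 6025 in N2, and 7 germline marker genes at 1306 and 1470 for line 1 and 1622 and 1537 in N2, all above 0. Summed intestinal markers, 5 genes, were at 14905 and 18111 for line 1 and 12867 and 13176 in N2. Sperm markers, 34 genes, were at 510 and 452 for line 1 and 487 and 518 in N2, ranges that overlap. Muscle markers, 3 genes, were at 3417 and 4364 for line 1 and 3193 and 3266 in N2. The part of these marker levels in the pathway differences was not tested. No member reached a scaled signal of 10 in the mRNA libraries.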

How the data were processed

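The authors' steps used cutadapt, Bowtie2, HISAT2, HTSeq and DESeq2 with genome build ce10, per the submitters' processing notes, which give no versions or roles. The annotation, strand setting and filters are not given in the sources used here. The labels' protocols state polyphosphatase treatment before the sRNA libraries and removal of ribosomal RNA before the mRNA libraries. The sRNA tables hold RPM as deposited by the authors. The mRNA table holds a scaled signal as deposited by the authors. Each table also holds the authors' deposited log2 fold change and p-value columns, used where named.

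As these values are normalized and not raw counts, the main test was limma 3.58.1 (R 4.3.3, trended variance) on log2(value + 1), restricted to genes averaging 10 or more in the libraries fitted. The added 1 makes fold changes of low genes smaller than their ratios. A gene was called when its p, adjusted by the Benjamini-Hochberg method across the genes tested, was under 0.05. Dividing by the value of 1 read gave whole reads for 100% of values, within 0.02, which edgeR 4.0.16 and DESeq2 1.42.0 used. Other alternatives were TMM and microRNA scaling, pseudocounts of 0.5 and 5, no filter, a replicate block and leaving out each library. The fits were tested on simulated data.

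The members and lists were chosen with earlier results of these data known. Named were the 8 highest members, 3 on each side of the threshold and 5 a direction beyond N2 in all lines. Up to 6 called members a direction were named in each comparison without N2 mixed libraries. In every comparison prg-1 and up to 6 called pathway genes were named. Members called in all 5 kinds of fit were named after their values were seen. Sequences and meg-3 were not analysed here.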

Additional observations from a re-analysis of the deposited data

Results flagged for a closer look

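Levels of the abundant piRNA genes differed between line 1 and lines 2 to 4 in a direct test without N2. In it 55 of 204 members were higher and 14 lower in line 1. All genes were called higher in 30.8% and lower in 4.38% of cases, against 27.0 and 6.9% of the members, so the difference was not shown to be particular to them. Depth also differed, at 4066778 and 4096142 reads in line 1 and 5259728 to 7465897 reads in lines 2 to 4, and its part was not tested. With TMM scaling 8 members were higher and 48 lower, beside 6.21 and 14.1% of all genes. On the higher side the log2 differences were 1.24 for 21ur-6929, 1.24 for 21ur-1621, 1.19 for 21ur-9577, 1.16 for 21ur-4314, 1.11 for 21ur-3541 and 1.04 for 21ur-314. Both 21ur-6929 and 21ur-4314 averaged below 10 RPM in lines 2 to 4 and passed the filter only through line 1. Neither 21ur-9577 nor 21ur-314 passed with TMM scaling. On the lower side the log2 differences were -1.0 for 21ur-361, -0.68 for 21ur-4570, -0.59 for 21ur-4755, -0.56 for 21ur-324, -0.51 for 21ur-5521 and -0.51 for 21ur-609. Without line 1 replicate 1 the higher count was 33, and without line 1 replicate 2 the lower count was 3. Without line 2 replicate 1 and without line 3 replicate 1 the lower count was 8 and 9.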

How the results depend on the processing

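Counts of members called depended on the scaling, and the cause was not tested. The share of all genes called by the same fit follows in each case, higher and then lower. For line 1 against lines 2 to 4 (55 higher, 14 lower), TMM scaling gave 8 and 48, edgeR 11 and 35, DESeq2 7 and 22 and no filter 24 and 5, microRNA scaling gave 2 lower, and leaving out a library 33 to 61 and 3 to 13. The shares were 6.21 and 14.1% with TMM, 10.6 and 10.4% with edgeR, 2.71 and 7.43% with DESeq2, 4.01 and 0.448% with no filter, 38 and 2.01% with microRNA scaling, and 15.6 to 30.2% and 3.12 to 4.25% with a library left out. For rde-11 (4 higher, 5 lower), TMM and DESeq2 gave 0 higher, edgeR 0 and 8, microRNA scaling 10 higher, no filter 1 higher, and leaving out a library 0 to 1 and 3 to 4. Here the shares were 9.92 and 10.9% with TMM, 9.19 and 13% with edgeR, 5.75 and 8.42% with DESeq2, 19 and 6.03% with microRNA scaling, 4.94 and 2.95% with no filter, and 3.07 to 17.5% and 4.22 to 7.56% with a library left out. For line 1 against N2 (0 and 2), TMM gave 3 and 1, edgeR and DESeq2 2 and 1, no filter 1 lower, and leaving out a library 0 to 11 and 1 to 12, beside 6.35 and 7.71% (TMM), 4.72 and 5.97% (edgeR), 4.93 and 5.6% (DESeq2), 0.172 and 0.691% (no filter), and 1.55 to 6.81% and 7.3 to 27.2% of all genes. For line 2 (5 and 57), TMM gave 37 and 3, edgeR 48 and 3, DESeq2 35 and 2, microRNA scaling 0 and 86, no filter 1 and 17, and leaving out a library 1 to 15 and 6 to 76. In that order the shares were 12.2 and 9.93%, 14.6 and 8.06%, 12 and 6.21%, 1.89 and 67.6%, 1.08 and 8.33%, and 2.13 to 7.48% and 11.2 to 63.9%. For line 3 (7 and 47), these were 58 and 3, 60 and 2, 37 and 2, 0 and 74, 3 and 22, and 0 to 16 and 12 to 67, beside 16.1 and 8.67%, 16.6 and 8.45%, 13.3 and 5.59%, 1.98 and 63.7%, 1.16 and 9.73%, and 2.12 to 8.5% and 9.7 to 65.2% of all genes. For line 4 (5 and 67), they were 53 and 3, 69 and 2, 56 and 1, 0 and 107, 3 and 35, and 1 to 13 and 9 to 63, beside 13.6 and 13.1%, 16.7 and 8.3%, 15 and 5.68%, 1.49 and 76.9%, 1.11 and 14.6%, and 2.59 to 6.16% and 27.6 to 70.3% of all genes.

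The same shares of all genes apply to the pathway counts. Pathway genes called higher in rde-11 (10) numbered 6 with TMM, 6 with edgeR, 4 with DESeq2 and 0 to 12 with a library left out, 0 without N2 replicate 1, and the 1 lower 0 to 1. Those higher in line 1 than lines 2 to 4 (11) numbered 4, 4, 0 and 4 to 12. Those lower than N2 numbered 0, 0, 0 and 0 to 10 in line 1 (2), with 1 under microRNA scaling and 0 with no filter. For line 2 (15) they numbered 2, 1, 1 and 1 to 18, for line 3 (16) 1, 2, 0 and 2 to 19, and for line 4 (18) 2, 1, 0 and 6 to 20. By the same 3 fits the higher ones numbered 1, 1 and 1 for line 2, 1, 2 and 2 for line 3, and 1, 3 and 3 for line 4. In mRNA the 8 lower numbered 2 with edgeR, 5 with DESeq2, 0 with no filter and 0 to 8 with a library left out, beside 1.81, 2.97, 0.158 and 0.0918 to 8.28% of all genes.

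TMM sums averaged 15492, 16398, 17200 and 17887 in lines 1 to 4, 13163 in N2 and 26904 in N2 young mothers. Reads per 1000000 microRNA reads averaged 54205, 44889, 48014 and 41641 in lines 1 to 4, 71959 in N2, 154178 in rde-11 and 137497 in N2 young mothers. Under microRNA scaling 12 of the 20 changes of the 5 members above N2 in all lines reversed. These were -0.029, -0.0026, -0.050 and -0.28 for 21ur-13215 in lines 1 to 4, -0.17, -0.28, -0.060 and -0.11 for 21ur-13515 in lines 1 to 4, -0.17, -0.032 and -0.039 for 21ur-2508 in lines 2 to 4, and -0.034 for 21ur-551 in line 4. Pseudocounts of 0.5 and 5 left all 26 counts within 1.5 times.

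With the replicate number as a block, rde-11 gave 41 higher and 13 lower members and 16 higher pathway genes, beside 36.8 and 13.3% of all genes. Line 1 against N2 gave 2 and 16 members and 10 lower pathway genes, beside 7.02 and 36.5%, while line 2 gave 10 higher members, beside 6.45%, and line 3 gave 3, beside 4.3%. Deviations of same-numbered libraries correlated over all genes at 0.40 for rde-11, 0.51 for line 1, 0.08 for line 2, -0.12 for line 3, -0.21 for line 4 and 0.23 for mRNA, and with 2 pairs each the samples are taken to share only a number. With the numbers crossed, line 3 gave 8 higher and 62 lower members, beside 6.27 and 58.1% of all genes, and line 4 gave 3 and 58, beside 4.84 and 64%. Over all alternatives, values of named genes kept their direction and side of the threshold in 1035 cases, no longer passed in 242, newly passed in 55 and changed sign in the 12 cases above.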

Other observations

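Of the 5 members above N2 in all 8 line libraries, 4 belong to clone Y116A8A, which holds 9 members, or 4.35% of the members, and 0.873% of all piRNA genes. This grouping was seen after the values and was not tested. The N2 libraries that chose the members also define these 5, and scaling to microRNA reads reversed many of their changes, as given above. The 9 members had median log2 changes against N2 of 0.15 in line 1, 0.25 in line 2, 0.34 in line 3 and 0.44 in line 4, while the medians of all 207 members were -0.09, -0.27, -0.24 and -0.31. In N2 their median was 0.44 higher on the log2 scale in replicate 1 than in replicate 2. Their median log2 change in rde-11 against N2 young mothers was 0.23, beside 0.07 for all members. None of the other 9 clones with at least 5 members had a positive median in lines 2 to 4.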
